A study of Mus musculus with 17 samples.

Results

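Ndnf Lamp5 interneuron nuclei were followed in a mouse study of chronic unpredictable stress (CUS). Members were selected on their own counts of unique molecular identifiers (UMIs). Of the 40000 cell barcodes of 8 mice, 31486 had 600 to 5000 genes and under 5% mitochondrial UMIs and were kept as nuclei. A kept nucleus was a member if it held at least 1 UMI of Gad1 or Gad2, at least 1 of Adarb2, and a UMI of at least 2 of the 6 genes Ndnf, Reln, Lamp5, Kit, Npy and Egfr. It could hold no UMI of Vip, Sst, Pvalb or Rgs9 and at most 1 of Slc17a7. This left 421 members of 31486 kept nuclei.

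The mice were C57BL/6 males (C57Bl/6J in the study's methods). In the single-nucleus data (sNucDrop-seq of the neocortex), 4 control mice and 4 CUS mice were taken at postnatal day 80, and in the bulk data (nuclear RNA of the medial prefrontal cortex, mPFC), 4 control and 5 other CUS mice were taken at postnatal day 90. CUS mice went through 3 changing stressors on each of 12 days. Neocortex was taken the day after the last stressor, and bulk mPFC the day after a last behavioral test. Control mice were handled daily and lived in another room, so CUS and the room cannot be told apart. Each sample is 1 mouse. The authors' model held a batch term, but the labels give no batch of each mouse, and none was used here.

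As background, Lamp5 and Ndnf neurons are cortical inhibitory neurons that arise mostly in the caudal ganglionic eminence. Many of them are neurogliaform cells, which lie densely in layer 1 and release GABA diffusely, so that slow GABA-B and extrasynaptic GABA-A receptors on their targets respond beside the fast synaptic ones. Ndnf encodes a secreted neurotrophic factor, Reln the extracellular glycoprotein reelin, Lamp5 a membrane protein of endosomes and synaptic vesicles, Kit and Egfr receptor tyrosine kinases, and Npy the peptide neuropeptide Y. Adarb2, an adenosine deaminase-like RNA-binding protein, marks neurons of the caudal eminence. In single nuclei, a missing UMI does not show that a gene was silent, since most transcripts are not captured.

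Each member had a median of 2036 UMIs (range 789 to 11844) and 1336 genes, close to the median of 2094 UMIs over all kept nuclei. Control replicates 1 to 4 gave 46, 64, 67 and 20 members and CUS replicates 1 to 4 gave 49, 37, 63 and 75. Their summed UMIs were 93763, 172806, 179823 and 44244 in the controls and 106885, 56271, 156980 and 206878 in the CUS mice. Control replicate 4 and CUS replicate 2 were therefore the shallowest, and these mice also stood apart from the other 6 on the first and the second principal component of the members' counts. The share of members among kept nuclei, and some of the named genes in which either mouse stood out, are given without them as well. The summed counts of mice of 1 group differed by more than counting error (over 12 pairs, chi-square divided by its degrees of freedom was 1.31 to 1.87), and any pair of mice shared 0 to 4 kept barcodes. A doublet score above 0.2 was given to 55 members (13.1%, with 2.70% to 22.2% per mouse), against 7.96% of all kept nuclei.

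The 14 genes of the rule describe the members and carry no test. Gad2 was detected in 93.8% of members and Gad1, the other GABA-synthesizing enzyme, in 79.3%. Of the 6 markers, Npy was detected in 69.1%, Reln in 66.3%, Kit in 59.9%, Lamp5 in 58.9%, Egfr in 47.0% and Ndnf in 30.4%. Few members carried the whole set, since 143 held 2 of the 6 markers, 111 held 3, 88 held 4, 49 held 5 and 30 held all 6. The commonest set was Lamp5, Kit, Npy and Egfr without Ndnf and Reln (32 members), followed by Lamp5 with Npy (31), all 6 (30) and Reln with Kit (27). Among members, Ndnf rarely stood without Reln: 120 of the 128 members with an Ndnf UMI also had one of Reln, whereas 159 members had Reln without Ndnf. The rule raises such shares, since a nucleus with Ndnf and none of the other markers could not be a member. At the edge of the rule, 42 members had a single UMI of Gad1 or Gad2, 37 a single UMI of Adarb2 and 29 the 1 permitted UMI of Slc17a7. Another 250 nuclei met every other condition but held only 1 of the 6 markers. These nuclei had a median of 4 Adarb2 UMIs and 1998.5 UMIs in all, against 6 Adarb2 UMIs in members.

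The label was checked with markers that the rule did not use, as CPM, counts scaled to a common library total of 1e6, over the summed UMIs of each class. Vip (342 nuclei), Sst (973) and Pvalb (461) interneurons were taken by analogous rules for comparison. Cplx3, a complexin of the vesicle release machinery, was at 67.8 CPM in members, 9.30 in Vip, 8.15 in Sst and 2.70 in Pvalb nuclei. Sv2c, a synaptic vesicle glycoprotein, was at 254 CPM in members and at no more than 30.7 in the other interneurons. Fgf13, an intracellular partner of sodium channels, was at 1058 CPM against 168 to 244, and Id2, an inhibitor of helix-loop-helix factors, at 238 CPM against 40.4 to 101. Of the 15 class markers outside the rule, these and Jam2, Pde11a, Dock5, Pax6 and Lsp1 were higher in members than in each other interneuron class. Pax6 and Lsp1 rested on few UMIs. Averaged over control and over CUS mice, Pax6 was at 5.58 and 11.8 CPM and Lsp1 at 2.89 and 5.75 CPM, where 3 UMIs over all members are 2.95 CPM. Gabrd, which encodes the delta subunit of extrasynaptic GABA-A receptors, did not follow the label (80.6 CPM in members and 164 in Pvalb nuclei). Plch2 and Nos1 were also higher in another class, Egln3 and Ntn1 were level with or below Vip nuclei, and Krt73 had 1 UMI in all members.

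The 7 genes of the caudal ganglionic eminence gave a mixed account. Prox1, a homeobox factor of these neurons, was at 134 CPM in members, 266 in Vip, 14.4 in Sst and 11.5 in Pvalb nuclei. Igf1 and Zbtb16 were at 171 and 165 CPM, again below Vip nuclei (329 and 197) and above the other classes. Htr3a, which encodes the ionotropic serotonin receptor of this lineage, was low in members at 13.8 CPM against 70.4 in Vip nuclei. Averaged over control and over CUS mice, Nr2f2 was at 62.6 and 54.6 CPM in members and Npas1 at 13.9 and 17.1 CPM. Sp8, at 1.44 and 5.75 CPM, rested on very few UMIs. Levels of these last genes in the other classes are not given here. Of the 7 genes of the medial eminence, 6 were lower in members than in both Sst and Pvalb nuclei. Lhx6 was at 8.84 CPM (45.0 in Sst nuclei and 47.8 in Pvalb nuclei), Sox6 at 53.1 (322 and 386) and Satb1 at 26.5 (223 and 197). Nkx2-1 had no UMI in members, where 3 UMIs would be 2.95 CPM. Kcnc1, a potassium channel of fast-spiking neurons, was the exception at 282 CPM, above Sst (246) and below Pvalb nuclei (1034). Of the genes of Vip neurons, Calb2, which encodes calretinin, was at 3.93 CPM (87.7 in Vip nuclei), and the peptide genes Crh and Tac2 were at 9.83 and 15.7 CPM (344 and 351). The peptide gene Cck was at 203 CPM in members, 495 in Vip and 147 to 156 in the other interneurons. By contrast, Nxph1, a secreted ligand of neurexins listed as a Sst gene, was at 862 CPM in members and 793 in Sst nuclei. Erbb4, the neuregulin receptor of many interneurons, was at 4368 CPM in members and 4442 in Pvalb nuclei. The label was met by 9 of the 15 class markers, with Pax6 and Lsp1 at few UMIs, and Gabrd, Nos1 and Plch2 were the ones that lay clearly higher in another class.

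With the genes of the rule left out, the 15 genes with the largest fold over Vip, Sst and Pvalb nuclei together were read out as a description, since the members had been chosen on the same counts. Pde11a, a phosphodiesterase that degrades cAMP and cGMP, led with 417 CPM in members and 27.0 in the other interneurons (15.4-fold). Col14a1, a collagen, followed with 12.6-fold, Crispld1, a secreted cysteine-rich protein, with 11.4-fold, Sv2c with 10.9-fold, and Cplx3 with 10.2-fold. Ddr2, a collagen receptor kinase, stood at 9.97-fold and Hapln1, a link protein of hyaluronan matrices, at 7.32-fold. Hcrtr2, a receptor of orexin, stood at 6.94-fold, Jam2, a junctional adhesion molecule, at 7.24-fold, Myo3b, an unconventional myosin, at 9.60-fold, and Tnfaip8l3 at 7.01-fold. The noncoding genes Has2os (10.3-fold), Gm3510 (10.1), Gm16070 (8.79) and Gm28154 (7.85) completed the list. Has2os is antisense to Has2, and the authors counted UMIs on the annotated strand only. Each of the 15 genes was at least 2-fold higher in members in 8 of 8 mice, except Tnfaip8l3 (7 of 8).

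**Figure D1:**
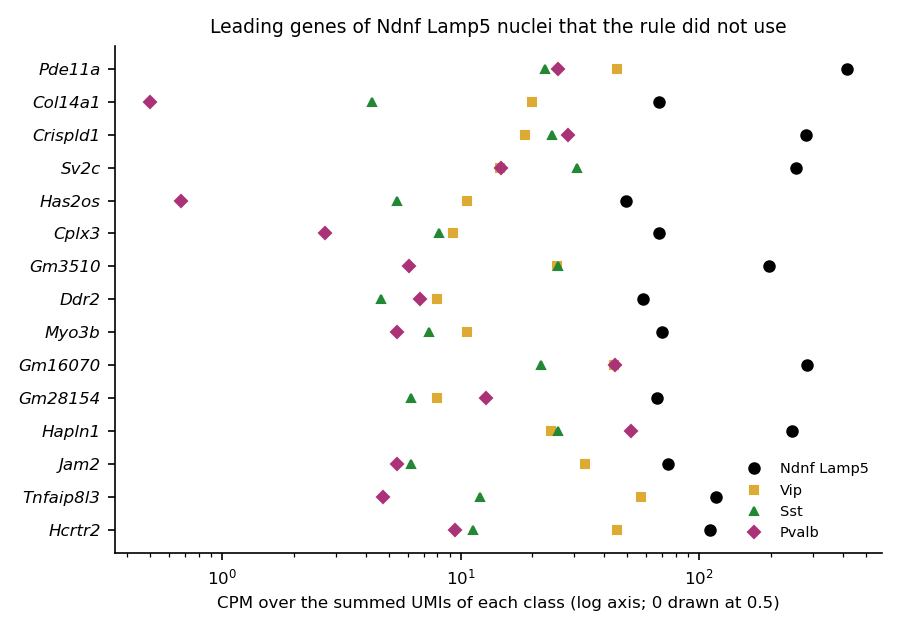
Level in CPM over summed UMIs (log axis) of the 15 genes outside the rule with the largest fold in Ndnf Lamp5 nuclei over other interneuron nuclei, for Ndnf Lamp5 (black circles), Vip (squares), Sst (triangles) and Pvalb nuclei (diamonds), with no UMI drawn at 0.5. The black circles lie to the right of every other class for each gene, and of these 15 Pde11a has the largest fold, at 417 CPM against 27.0 in the other interneurons together.

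Receptors through which such neurons are modulated differed in level between the classes. Adra1a, the alpha-1A adrenergic receptor, was at 580 CPM in members against 125 to 272 in the other interneurons, and was detected in 61.0% of members. At 1000 UMIs per nucleus, where 398 members remained, Adra1a was detected in 43.0% of members, 12.9% of Vip, 10.0% of Sst, 22.7% of Pvalb and 3.59% of excitatory nuclei. Chrna7, the alpha-7 nicotinic receptor subunit, was at 137 CPM in members and 11.5 to 67.7 in the other classes. Htr2a, a Gq-coupled serotonin receptor, was at 61.9 CPM against 12.0 to 43.1. Other receptors lay the opposite way, since Chrm3 was at 230 CPM against 485 in Vip nuclei, and Htr2c was at 60.9 against 210 in Vip nuclei. Among GABA-B receptor subunits, Gabbr2 was at 429 CPM in members and 232 to 306 elsewhere, and Gabbr1 at 177 against 173 to 215. In the reelin pathway, the adaptor Dab1 was at 1057 CPM in members against 409 to 747, and the receptors Vldlr (165 against 98.6 to 135) and Lrp8 (88.4 against 63.8 to 70.6) lay closer together. Grik1 (1388 CPM against 450 to 971) and Grin2a (1193 against 485 to 706), subunits of kainate and NMDA receptors, and Cacna2d1 (1051 against 195 to 464), a calcium channel subunit, were higher in members as well. The mGluR gene Grm7 lay at 483 CPM, below the 1613 of Vip and 1163 of Sst nuclei.

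UMIs of genes that mark other cell types were also counted in members, and whether they were the members' own or admixed was not tested. Over the summed UMIs of each mouse, the 8 excitatory markers came to 355 to 701 CPM (1206 in the other kept nuclei), the 5 astrocyte markers to 353 to 917 (983), the 7 striatal markers to 533 to 942 (908) and the 5 oligodendrocyte markers to 267 to 1068 CPM (807). Microglial (0 to 100 CPM over 4 genes) and endothelial markers (0 to 28.1 over 4 genes) were low, and Cldn5 and Adora2a had no UMI. Oligodendrocyte precursor markers were above the other kept nuclei (150 to 384 CPM against 59.3), and the largest part of this was Vcan, at 153 CPM in members. None of these sums separated the groups in an exact permutation test, two-sided, with the smallest p of 0.057 for precursor markers (260 CPM on average in control mice and 159 in CUS mice).

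Members with and without an Ndnf UMI were compared next. The 128 members with Ndnf (5 to 28 per mouse) had a median of 2174 UMIs and the 293 without (15 to 49 per mouse) had 1961. The split uses the members' own counts, so the folds are a description. Higher with Ndnf were Ndst4 (3.26-fold), an enzyme of heparan sulfate synthesis, Sema3e (2.82-fold) and Sema6a (2.30-fold), which are semaphorin guidance cues, and Rxfp1 (2.60-fold), the relaxin receptor. Sesn3 (2.31-fold), Gm15155 (2.36-fold), Grik1 (2.13-fold) and B3galt2 (2.03-fold) followed. Ndst4 and Sesn3 were higher with Ndnf in 8 of 8 mice, Grik1 in 7, Sema3e and Sema6a in 6 and Rxfp1 in 5. Of the list genes, Cntn5 (1.95-fold), Ptprt (1.94-fold), Cplx3 (1.92-fold) and Erbb4 (1.65-fold) lay the same way, whereas Pde11a (0.990-fold), Sv2c (1.17-fold) and Fgf13 (1.18-fold) were near parity.

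Higher without Ndnf were Col25a1, a membrane collagen, and St18, a zinc-finger factor (4.61-fold each), the cadherin Cdh8 (3.58-fold), the synaptic vesicle protein Synpr (3.39-fold) and the peptide gene Cck (3.29-fold). Slc44a5 (3.36-fold) and Baz2a (3.11-fold) also belonged to the 8 genes of largest fold, and so did the myelin gene Mbp (3.65-fold). Cck and Cdh8 were higher without Ndnf in 8 of 8 mice, Mbp and Synpr in 7, and Col25a1 and St18 in 6. Mobp, another myelin gene, lay the same way, at 68.5 CPM without and 25.3 CPM with Ndnf (5 of 8 mice). Sox6, a gene of medial eminence interneurons and of the oligodendrocyte lineage, was at 67.0 and 22.1 CPM. In oligodendrocyte nuclei Mbp was at 3334 CPM against 98.3 in members, and the part of free or admixed oligodendrocyte RNA in the split was not tested.

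**Figure D2:**
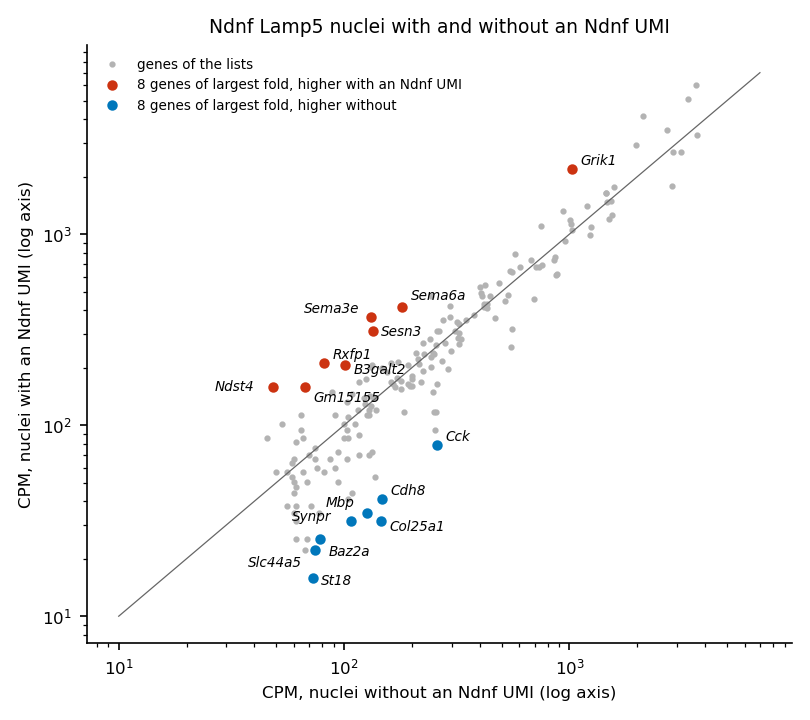
CPM of genes in the 128 Ndnf Lamp5 nuclei with an Ndnf UMI (vertical, log axis) against the 293 without one (horizontal, log axis), with a line of equality, the genes of the fixed lists in grey, and the 8 genes of largest fold in each direction in color. Most list genes lie near the line, while Ndst4 (3.26-fold) and Col25a1 (4.61-fold) lead on either side.

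The first question of the design is whether CUS altered how many of these nuclei were recovered. In control replicates 1 to 4, members were 1.33% (95% Wilson interval 1.00 to 1.78), 1.33% (1.04 to 1.69), 1.35% (1.07 to 1.71) and 0.882% (0.572 to 1.36) of kept nuclei. In CUS replicates 1 to 4 they were 1.21% (0.915 to 1.59), 1.07% (0.779 to 1.47), 1.75% (1.37 to 2.23) and 1.54% (1.23 to 1.92). The groups overlapped, and 3 control mice lay between the lower and the upper pair of CUS mice. The means were 1.22% ± 0.228 (SD, n = 4) and 1.39% ± 0.308 (SD, n = 4), and an exact permutation test, two-sided, gave p = 0.4, where the smallest p possible for 4 mice against 4 is 0.0286. Intervals cover counting error only.

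Among interneurons the share was read without glia and excitatory nuclei. Members made up 18.0% ± 1.84 (SD, n = 4) of the Ndnf Lamp5, Vip, Sst and Pvalb nuclei of control mice and 20.1% ± 2.36 (SD, n = 4) of those of CUS mice (exact permutation test, two-sided, p = 0.171). Control mice ranged from 15.7% to 19.5% and CUS mice from 17.1% to 22.8%. With each nucleus thinned to 1000 UMIs before the rule was applied, members were 0.975% ± 0.0772 of kept nuclei in control mice and 1.13% ± 0.118 in CUS mice (exact permutation p = 0.0857, n = 4 each), after 1003 control and 1692 CUS nuclei under 1000 UMIs were left out. Without control replicate 4 and CUS replicate 2, which was added after the data had been seen, the means were 1.34% and 1.50% (exact permutation p = 0.4, 3 mice each). Depth of the members did not separate the groups either, at a mean of mouse medians of 2093 ± 287 UMIs in controls and 1935 ± 369 in CUS mice (exact permutation p = 0.543, n = 4 each). No difference in number was detectable at this size.

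**Figure D3:**
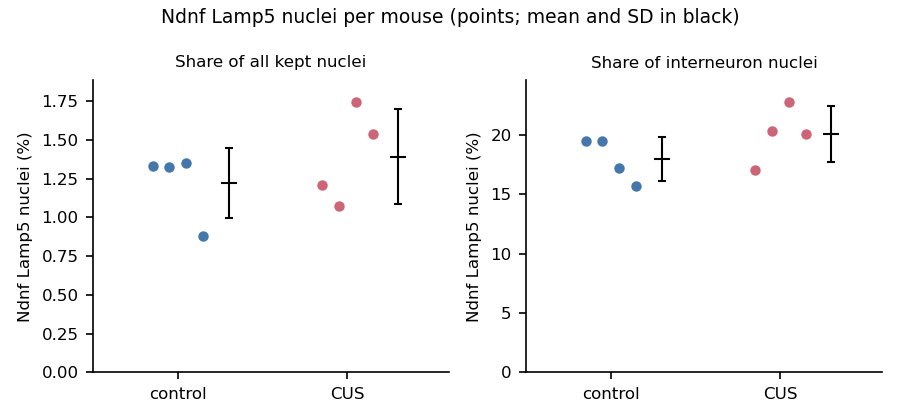
Share of Ndnf Lamp5 nuclei in each mouse, in percent of all kept nuclei (left) and of interneuron nuclei (right), with 1 point per mouse and the mean and SD in black. Control and CUS mice overlap in both panels, and the lowest control mouse in the left panel, at 0.882%, is replicate 4.

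The second question is which genes differed between CUS and control mice within these nuclei. UMIs of members were summed per mouse, the genes of the rule were left out, and 5001 genes whose summed UMIs exceeded 10% of the members were tested with the quasi-likelihood test of edgeR with Benjamini-Hochberg adjustment. At the FDR of 0.2 that the study used, 0 genes (0%) were called, and the smallest adjusted p was 0.994. An unadjusted p under 0.05 was reached by 184 genes (3.68%), of which 96 had higher and 88 lower values in CUS mice. Of the other tools, the likelihood ratio test of edgeR called 0 genes (235 at an unadjusted p under 0.05) and DESeq2 called 0 (63). The median log2 fold change over all genes was 0.01, and 50.7% lay above 0. In 123 genes (2.46%) the CPM of control and CUS mice did not overlap.

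Because nothing passed the test, the 8 genes of smallest p in each direction are given as values, on the scale of CPM with TMM factors. Polb encodes DNA polymerase beta of base excision repair. It was at 183, 162, 191 and 157 CPM in control replicates 1 to 4 and at 373, 310, 276 and 320 CPM in CUS replicates 1 to 4. The groups did not overlap, with a log2 fold change of 0.85 ± 0.24 (SE) and an adjusted p of 0.994 from the quasi-likelihood test. Celf5, an RNA-binding regulator of splicing, was at 108, 86.7, 109 and 89.7 CPM in controls and at 261, 182, 193 and 167 CPM in CUS mice (log2 fold change 0.99 ± 0.29). Again every CUS mouse lay above every control mouse. Sugp2 (1.42 ± 0.44), Tcerg1l (1.59 ± 0.52) and Atp5h (0.96 ± 0.32), a subunit of the mitochondrial ATP synthase, did not overlap either. For scale, 2 UMIs of a gene were 21.5 CPM in control replicate 1, and 3 UMIs were 67.2 CPM in control replicate 4. Sugp2 (21.5 to 46.2 CPM in control mice) and Tcerg1l (10.8 to 27.3 CPM) thus rested on few UMIs there. In Yjefn3 (1.62 ± 0.52), Fam214a (1.26 ± 0.41) and 2610301B20Rik (1.53 ± 0.51) the groups overlapped.

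In the lower direction, Micu3, a regulator of mitochondrial calcium uptake, was at 355, 272, 279 and 359 CPM in control mice and at 65.2, 91.1, 199 and 201 CPM in CUS mice. The highest CUS mouse lay below the lowest control mouse, and the log2 fold change was -0.98 ± 0.27. Sos1, an exchange factor that activates Ras below receptor tyrosine kinases such as Kit and Egfr, was at 86.1, 110, 126 and 89.7 CPM in control mice and at 46.6, 18.2, 57.8 and 28.7 CPM in CUS mice (log2 fold change -1.42 ± 0.39, no overlap). Mrpl1, a protein of the mitochondrial ribosome, was at 102 ± 13.7 CPM (SD, n = 4) and 46.1 ± 6.75 CPM (SD, n = 4), again without overlap. Kmt5a, a histone H4 lysine methyltransferase, had a log2 fold change of -1.48 ± 0.49 and no overlap, with 0 CPM in CUS replicate 2 (-1.34 without this mouse and control replicate 4). It was at 18.6, 19.3 and 38.2 CPM in CUS replicates 1, 3 and 4, so its CUS values rested on few UMIs. The groups overlapped in Ntng1 (-1.40 ± 0.43), a GPI-anchored netrin, Grm7 (-0.76 ± 0.24), the presynaptic metabotropic glutamate receptor, Opa1 (-1.07 ± 0.35), a GTPase of mitochondrial fusion, and Cdh12 (-0.93 ± 0.32). In all, 9 of these 16 genes had groups that did not overlap, and they had been picked for their p. Adjusted p was 0.994 for each of the 16.

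**Figure D4:**
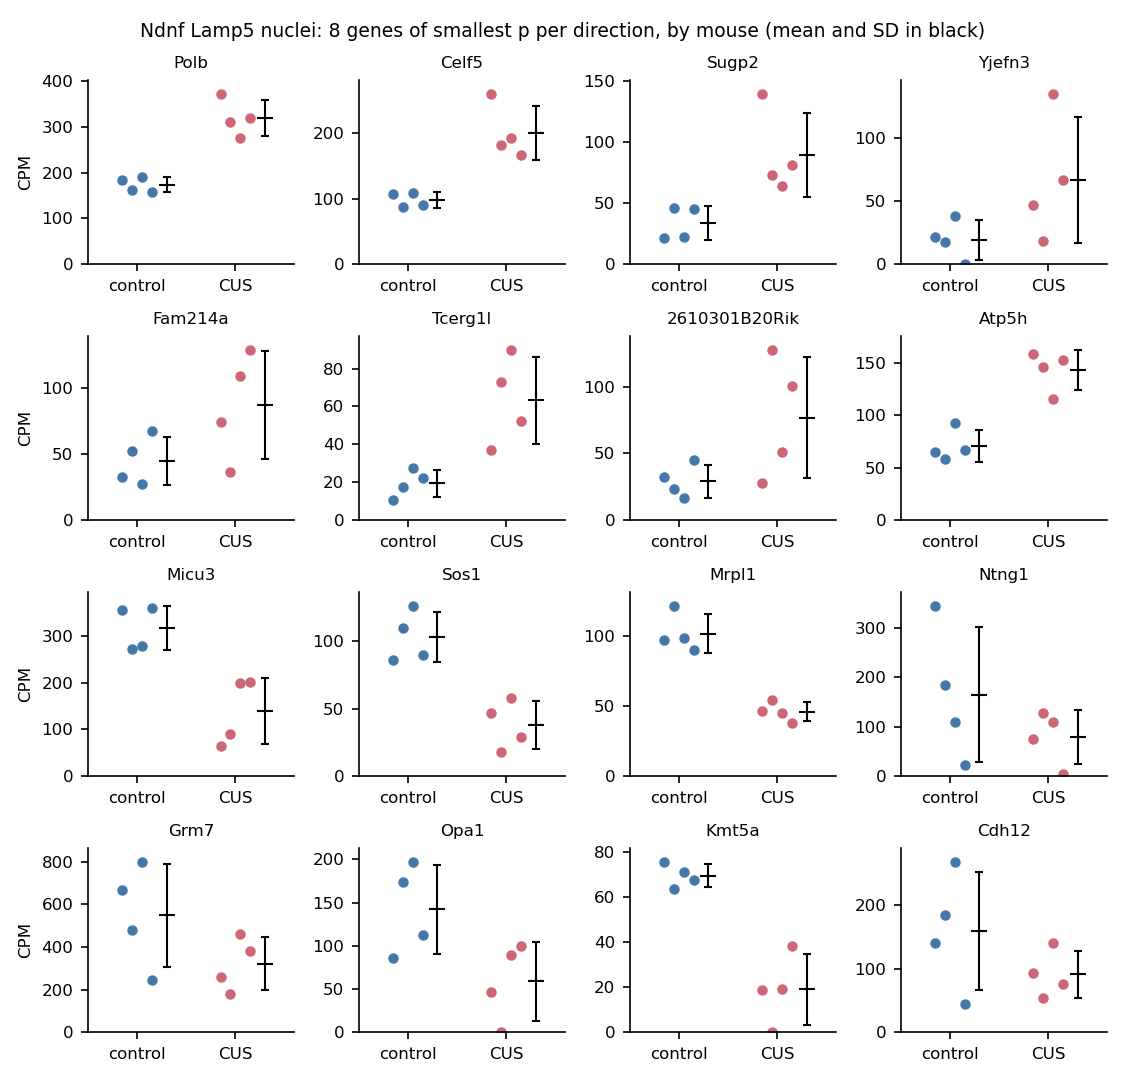
CPM (TMM-scaled) of the 16 genes of smallest p between CUS and control in Ndnf Lamp5 nuclei, in 1 panel per gene with 1 point per mouse and the mean and SD in black. Polb, Celf5, Sugp2, Tcerg1l and Atp5h, higher in CUS mice, and Micu3, Sos1, Mrpl1 and Kmt5a, lower in CUS mice, show no overlap of the groups, and all 16 have an adjusted p of 0.994.

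Of the 7 tested markers of the class outside the rule, Id2 was the one whose groups did not overlap, where 2.46% of all genes tested did not overlap. Id2 was at 269, 289, 263 and 359 CPM in control mice and at 233, 164, 199 and 182 CPM in CUS mice. The log2 fold change was -0.54 ± 0.24, with an adjusted p of 0.994. A UMI of Id2 was found in 44.7% ± 4.77 of members of control mice and 30.7% ± 11.7 of members of CUS mice (p = 0.0286 by two-sided exact permutation, which 4 mice against 4 cannot go below, and 0.229 adjusted over the 8 genes so compared). At 1000 UMIs per nucleus the shares were 26.6% and 17.8% (exact permutation p = 0.0286, adjusted 0.229). Pvalb nuclei, the interneurons of lowest Id2 level, had a median of 2787 UMIs before thinning against 2036 in members, and Id2 was found in 3.83% of them at 1000 UMIs per nucleus. Pde11a, with 268 to 628 CPM in control and 233 to 674 in CUS mice, overlapped fully (-0.36 ± 0.25). Prox1 (-0.35 ± 0.29) and Zbtb16 (0.14 ± 0.28) had the largest differences of the caudal eminence genes, and Zbtb16 lay at -0.02 without CUS replicate 2. Of 52 tested genes that were at least 5-fold enriched in members over all other kept nuclei, 0 were called, 3 reached an unadjusted p under 0.05 (5.77%, against 3.68% of all genes), and 19 lay above and 33 below 0, with a median of -0.06.

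Genes of GABA handling and GABA receptors had 0 calls of 6 and 0 of 13 tested. Slc12a5, the chloride extruder KCC2 that sets the reversal of GABA currents, was at 195 ± 28.8 CPM (SD, n = 4) in control and 129 ± 23.1 CPM (SD, n = 4) in CUS mice, and Abat, the GABA transaminase, had a log2 fold change of 0.31 ± 0.33. Slc12a5 did not overlap (-0.55 ± 0.27). Gabbr1, the ligand-binding subunit of the GABA-B receptor, was at 248, 185, 197 and 291 CPM in control mice and at 130, 182, 122 and 158 CPM in CUS mice (-0.58 ± 0.27), so that the highest CUS mouse lay just below the lowest control mouse. Gabra2 lay the other way and overlapped (0.37 ± 0.28). Of 13 GABA receptor genes, 5 were above and 8 below 0.

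Of 19 tested glutamate receptor genes, 5 lay above and 14 below 0, with a median log2 fold change of -0.08 and 1 gene, Grm7, at an unadjusted p under 0.05. Grik4, a kainate receptor subunit, had 0.74 ± 0.45. Of 9 neuromodulator receptors, 3 lay above and 6 below 0. Cnr1, the cannabinoid receptor CB1, had 0.53 ± 0.26, but with at least 3 markers required of a member it was at -0.23. Chrm1, the muscarinic M1 receptor, had -0.57 ± 0.50. In the reelin pathway, 4 genes of 7 lay above and 3 below 0, with Vldlr at -0.37 ± 0.27 and Lrp8 at 0.26 ± 0.37, the latter at -0.09 without control replicate 3.

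Genes of glucocorticoid signaling and genes that respond to neuronal activity were looked at because of the stress design. Nr3c1, the glucocorticoid receptor, was at 140, 168, 164 and 89.7 CPM in control mice and at 65.2, 109, 83.5 and 110 CPM in CUS mice. Its groups overlapped through control replicate 4 (-0.71 ± 0.30, adjusted p = 0.994), and without that mouse and CUS replicate 2 it had -0.84. A UMI of Nr3c1 was found in 26.1% ± 6.06 of control and 15.8% ± 5.68 of CUS members (exact permutation p = 0.0857, adjusted 0.343, n = 4 each). At 1000 UMIs per nucleus the shares were 10.5% and 7.33% (exact permutation p = 0.286, adjusted 0.381). Fkbp4, a chaperone of the receptor, had -0.42 ± 0.45. Of the 9 tested genes of steroid signaling, 2 lay above and 7 below 0. They include receptors, chaperones and coactivators, and also Sgk1 and Zbtb16, the latter above 0 at 0.14 ± 0.28. Fkbp5, Tsc22d3 and Per1 had too few UMIs to be tested, so the count is no reading of a steroid response as a whole. Egr1, an immediate early transcription factor, was at 32.3, 23.1, 49.2 and 22.4 CPM in control mice and at 93.2, 91.1, 44.9 and 76.4 CPM in CUS mice (1.07 ± 0.46), with CUS replicate 3 inside the control range. Homer1, a postsynaptic scaffold with an activity-regulated short form, had 0.46 ± 0.33. Of 25 activity genes only 6 had enough UMIs to be tested, and 5 of these lay above 0.

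Among adhesion genes, 9 of 30 lay above and 21 below 0, with 3 at an unadjusted p under 0.05 (10.0%, against 3.68% of all genes). These 3, named after their values were seen, were Cntnap5a (0.74), Ptprd (-0.55) and Lrrtm2 (-0.71), in both directions. The 2 of largest difference, Nlgn2 and Il1rapl2, were not among them. Nlgn2, the neuroligin of inhibitory synapses, was at 68.0 ± 30.4 CPM (SD, n = 4) in control mice and 31.3 ± 3.88 CPM (SD, n = 4) in CUS mice, without overlap and with an adjusted p of 0.994. These Nlgn2 values rest on few UMIs per mouse. Il1rapl2 had -0.91 ± 0.49, with control replicate 2 at 341 CPM, and without this mouse it lay at 0.71. Of 23 potassium channel genes 10 lay above and 13 below 0. Kcnd3, an A-type channel, had 0.68 ± 0.31 and Kcnmb2, a subunit of BK channels, had -0.39 ± 0.27. Calcium and sodium channels ranged from Scn1a at -0.25 ± 0.20 to Cacna1b at 0.22 ± 0.26. Of 9 genes of Yy1, Ctcf and cohesin, 4 lay above and 5 below 0, with Rad21 at 0.58 ± 0.45, Ctcf at -0.48 ± 0.30 and Yy1 at -0.12 ± 0.38.

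The study listed 5 genes for this class of nuclei on these same mice, so their direction is not independent evidence. Gm20417 had a log2 fold change of -1.25 ± 0.52, Brinp3 of -0.44 ± 0.30, Rit2 of -0.37 ± 0.33 and Col25a1 of 0.84 ± 0.39, each with an adjusted p of 0.994 here. In Vip, Sst and Pvalb nuclei together, Gm20417 had -1.25 ± 0.30, Brinp3 -0.36 ± 0.16, Rit2 -0.10 ± 0.17 and Col25a1 -0.45 ± 0.19. The lower values of Gm20417 and Brinp3 were thus not particular to members. Brinp3 lay at 0.00 without control replicate 3, and Rit2 at 0.10 without control replicate 2. C230034O21Rik, an antisense gene, had 2, 5, 2 and 3 UMIs in control replicates 1 to 4 and 0 in each CUS mouse. Its 12 UMIs were too few for the filter, so it was not tested. Over the summed UMIs of each group it was at 24.5 CPM in control mice. The floor of 3 UMIs over the CUS group was 5.69 CPM, which is 4.30-fold lower. That fold leaves out the counting error of the 12 control UMIs and the spread between mice, so it is not a lower bound.

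Whether CUS acted differently on these nuclei than on other interneurons was tested directly. The UMIs of members and of Vip, Sst and Pvalb nuclei were summed per mouse, and the class by CUS interaction was tested with the mouse as a block. Of 4772 genes, 0 (0%) were called at an FDR of 0.2 by the quasi-likelihood test of edgeR, and 207 had an unadjusted p under 0.05. The smallest adjusted p was 0.798. The likelihood ratio test of edgeR and DESeq2 also called 0 genes, with 243 and 77 at an unadjusted p under 0.05. Sos1 had the smallest p. In members it had a log2 fold change of -1.42 ± 0.39, as above, and in the other interneurons it was at 63.8, 90.8, 95.1 and 80.8 CPM in control and 72.9, 97.7, 111 and 80.0 CPM in CUS mice, a log2 fold change of 0.06 ± 0.19. The difference was -1.53 ± 0.39 on the log2 scale.

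The next genes in the lower direction were Atp6v1a, a subunit of the vacuolar proton pump (difference -0.87 ± 0.22), Cdk7, a kinase of transcription initiation (-1.55 ± 0.44), and Mapk8, the kinase JNK1 (-0.96 ± 0.29). Atp6v1a was at 463, 422, 454 and 471 CPM in members of control mice and 335, 91.1, 283 and 349 CPM in those of CUS mice. In the other interneurons its log2 fold change was 0.21 ± 0.16. In the higher direction were Tln2, a talin that links integrins to actin (1.43 ± 0.39), Plppr1 (1.17 ± 0.33), Col25a1 (1.34 ± 0.39) and Sorbs2 (0.67 ± 0.20). Tln2 was at 32.3, 40.5, 38.3 and 89.7 CPM in members of control mice and 74.5, 91.1, 103 and 100 CPM in those of CUS mice, whereas the other interneurons had -0.34 ± 0.16. The control value of 89.7 CPM belonged to replicate 4, the shallowest mouse. Without this mouse and CUS replicate 2 the differences were 1.63 for Tln2, -0.68 for Atp6v1a, -1.23 for Cdk7, -0.83 for Mapk8 and -1.43 for Sos1. Each of these 8 differences had the same direction in 14 of 14 alternatives, and none passed the test in any. The 8 genes had been picked for their p, and the alternatives use the same mice, so a constant direction is no further evidence.

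Bulk nuclear RNA of the mPFC was read for genes that these nuclei carry. A list was formed from the single-nucleus mice alone: genes with at least 50 UMIs in members, at least 5 times the CPM of all other kept nuclei and at least 2 times in each mouse. It held 60 genes, 59 of them tested in bulk, where libraries had 26188825 to 30525015 reads on genes. Over Vip, Sst and Pvalb nuclei together, these genes stood at 1.04-fold (Kcnip1) to 20.3-fold (Ndnf), with Alk at 2.88-fold and Adamts17 at 3.61-fold. Other interneurons thus carried part of the list as well, and bulk values of such genes are not particular to members. In bulk tissue, fewer cells of a type and less RNA per cell cannot be told apart. Over all genes, 606 of 18394 (3.29%) were called at an FDR of 0.05 by the quasi-likelihood test of edgeR. Of the 59 genes, 3 were called, 2 higher (Adamts17 and Alk) and 1 lower (Ndnf) in CUS mice. Without 1 mouse these counts ran from 0 (without CUS replicate 5) to 6 (without control replicate 1 or 3 or CUS replicate 2), and over all genes from 133 (without control replicate 2) to 1508 (without control replicate 3). In all, 20 lay above and 39 below 0, with a median log2 fold change of -0.10 against 0.01 for all genes. More lay below than above 0 in 14 of 14 alternatives. The 59 include 8 genes of the rule, whose enrichment the rule made certain in part. Of these 8, 3 lay above and 5 below 0, and Ndnf was the 1 called. Of the 51 tested genes outside the rule, 17 lay above and 34 below 0, with 2 called, both higher.

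Ndnf itself lies on mm10 chromosome 6 from 65671590 to 65712326, as the bulk files give it, and was 49.7-fold enriched in members, which the rule made certain in part. In bulk it was at 23.1, 24.5, 17.9 and 21.8 CPM in control mice and at 16.5, 17.8, 15.98, 14.995 and 12.6 CPM in CUS mice. The highest CUS mouse lay just below the lowest control mouse. Ndnf fell with a log2 fold change of -0.49 ± 0.11 and an adjusted p of 0.0300 from edgeR, and it was called in 8 of 14 alternatives, whose adjusted p ran from 0.00126 to 0.105. The adjusted p passed 0.05 without control replicate 1 (0.0503), 2 (0.105) or 4 (0.0509) and without CUS replicate 3 (0.0570), 4 (0.0872) or 5 (0.0682), while the log2 fold change stayed between -0.41 and -0.58. Of the other genes of the rule, Gad1 (-0.32 ± 0.18), Gad2 (-0.26 ± 0.14), Adarb2 (-0.11 ± 0.11) and Egfr (-0.35 ± 0.09, adjusted p = 0.0559) also lay below 0 without passing the test. Reln was at 138 ± 11.7 CPM (SD, n = 4) in control and 139 ± 11.2 CPM (SD, n = 5) in CUS mice, and Kit at 25.8 ± 2.24 and 26.3 ± 1.21 CPM. Lamp5, which excitatory nuclei also carried (127 CPM against 421 in members), rose from 25.5 ± 2.13 to 33.3 ± 3.52 CPM (0.39 ± 0.09, adjusted p = 0.0338, called in 7 of 14 alternatives), with CUS replicate 2 at 27.2 CPM inside the control range. Npy lay above 0 (0.49 ± 0.13, adjusted p = 0.0606). Egfr passed in 6 and Npy in 5 of 14 alternatives.

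Adamts17 (chromosome 7, 66839735 to 67153171), a secreted metalloprotease, was at 89.4, 92.8, 93.6 and 67.0 CPM in control mice and at 109, 121, 125, 125 and 131 CPM in CUS mice. It rose by a log2 fold change of 0.51 ± 0.09 with an adjusted p of 0.0145 from edgeR, without overlap, and was called in 13 of 14 alternatives, the exception being the fit without CUS replicate 5 (0.49, adjusted p = 0.0502). In members it stood at 5.48 times the other kept nuclei. Alk (chromosome 17, 71869442 to 72603709), a receptor tyrosine kinase, was at 79.7, 85.8, 98.4 and 90.9 CPM in control and 117, 101, 113, 110 and 104 CPM in CUS mice. All CUS mice lay above the control mice, with a log2 fold change of 0.30 ± 0.07 and an adjusted p of 0.0369 from edgeR, and the call held in 7 of 14 alternatives. With the replicate number as a block the adjusted p was 0.0686, and it ran from 0.0637 to 0.112 without control replicate 1 or 2 or without CUS replicate 1, 3, 4 or 5. In members, which came from other mice, the groups overlapped for both genes. Adamts17 was at 211 ± 82.1 CPM (SD, n = 4) in control and 218 ± 95.1 CPM (SD, n = 4) in CUS mice, and Alk at 335 ± 95.8 and 383 ± 174 CPM, each with an adjusted p of 0.994 from edgeR.

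Of the 6 most enriched genes, Ndnf, Kit, Egfr and Npy are given above, and Pde11a (-0.09 ± 0.11) and Has2os (0.04 ± 0.20) had overlapping groups. Markers of other cells also lay off 0 in the same bulk libraries. All 5 oligodendrocyte markers (median -0.52, 0 called) and all 5 astrocyte markers (median -0.20, 2 called) lay below 0, and the 7 striatal markers had a median of -0.60 with 1 call in the higher direction. Vip (0.33 ± 0.10, no overlap), Sst (0.39 ± 0.12) and Pvalb (0.44 ± 0.20) lay above 0 and were not called, though Vip passed in 2 and Sst in 3 of 14 alternatives. Of the other markers of these classes, 4 of 7 Vip, 2 of 5 Sst and 2 of 7 Pvalb genes lay above 0, with 0 called. Npy was at 1118 CPM in Sst nuclei and 2885 in members. The part of such shifts in the values of Ndnf, Lamp5, Npy, Adamts17 and Alk was not tested. Of the 16 genes of smallest p in members, 12 had the same sign in bulk and 1 was called, where 3.29% of all bulk genes were called. How often signs matched over all genes was not counted. The bulk sign of Celf5, Fam214a, Mrpl1, Grm7 and Kmt5a turned under at least 1 alternative. Sos1 fell from 112 ± 7.19 CPM (SD, n = 4) to 93.2 ± 1.25 CPM (SD, n = 5), a log2 fold change of -0.27 ± 0.05 with an adjusted p of 0.0205 from edgeR. Sos1 is not enriched in these nuclei by the rule above, so its bulk value is that of the whole tissue. Of the 5 genes listed by the study, Brinp3 was called in bulk (-0.67 ± 0.14, adjusted p = 0.0246), and the other 4 were not.

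**Figure D5:**
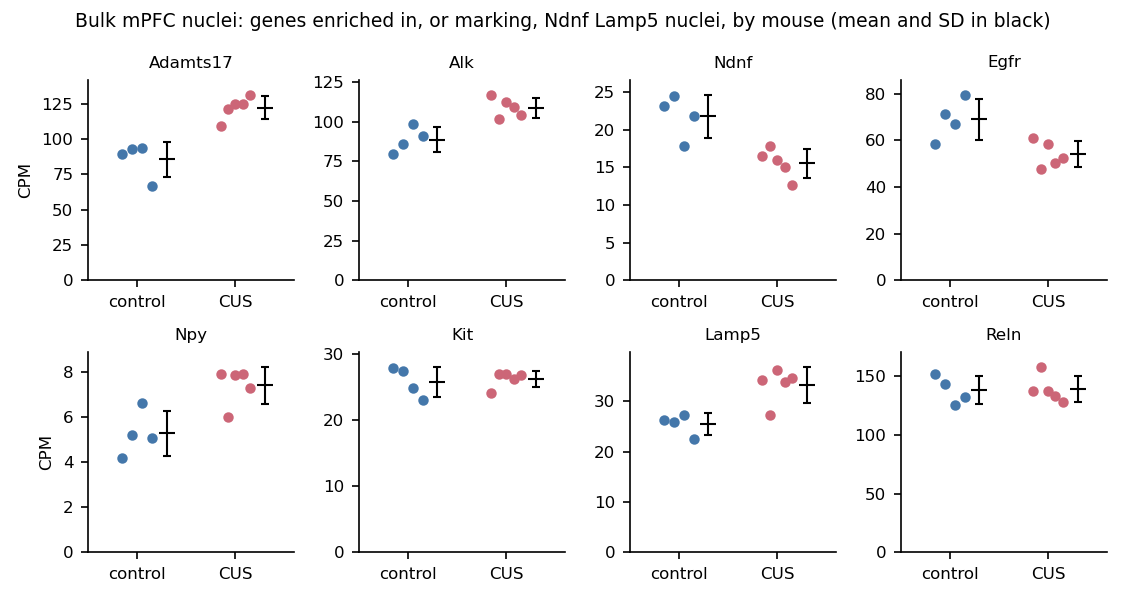
CPM (TMM-scaled) in bulk mPFC nuclei of 8 genes that mark or are enriched in Ndnf Lamp5 nuclei, in 1 panel per gene with 1 point per mouse (4 control, 5 CUS) and the mean and SD in black. Adamts17 and Alk are higher and Ndnf is lower in CUS mice without overlap, Lamp5 is higher with 1 CUS mouse inside the control range, and Reln and Kit overlap fully.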

How the data were processed

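Single-nucleus libraries (sNucDrop-seq, 8 mice) were deposited by the authors as raw UMI counts per gene and nucleus, 5000 barcodes per mouse. The authors mapped reads to mm10 with Gencode vM13, counted exonic and intronic UMIs on the annotated strand and merged near-identical UMIs. Bulk mPFC libraries (9 mice) were deposited as raw read counts per gene, after STAR alignment of uniquely mapping reads and counting with the authors' own programs. The authors' clusters were not used here. Nuclei were filtered on genes and mitochondrial UMIs as the study states, and members were found by the rule, without clustering. The study also removed doublets by a score. Here a doublet score was computed anew, and nuclei above 0.2 were kept, and removed only as an alternative.

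UMIs were summed per mouse, normalized with TMM factors and tested with the quasi-likelihood test of edgeR (version 4.0.16, R 4.3.3) with Benjamini-Hochberg adjustment, at an FDR of 0.2 for nuclei, among genes with more summed UMIs than 10% of the number of nuclei, and 0.05 for bulk, after edgeR's filter on low counts. DESeq2 (1.42.0), the likelihood ratio test, other filters and scalings, stricter membership, a replicate block and leaving out each mouse were alternatives. Leaving out both shallowest mice, and nuclei over 1000 UMIs without thinning, were chosen after seeing the data. Shares were compared by exact permutation tests over mice (scipy 1.17.1). Summed member UMIs of 44244 to 206878 per mouse limit the precision.

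Members, marker lists and gene lists were chosen with earlier results of these data known. Genes named are the 8 of smallest p in each direction, the 2 of largest absolute log2 fold change per list (for lists of other cell types only the summed level), the 15 of largest fold over other interneurons, the 8 of largest fold per direction in the Ndnf split, the 4 of smallest p per direction for the interaction, the 5 the study listed, the called and 6 most enriched genes in bulk, and the rule's own genes. Scripts were tested on simulated data. Results that rest on some genes are not reported here.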

Additional observations from a re-analysis of the deposited data

Results flagged for a closer look

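Of 122 groups of 4 or 5 mice that were examined, 6 held a mouse far from the others, and chance gives about 1 in 20. In the share of Ndnf Lamp5 nuclei among kept nuclei, control replicate 4, at 0.882%, lay apart from the other control mice at 1.33% to 1.35%. The same mouse had the fewest members (20) and lay apart in 3 of the genes named for their interaction. Its CPM was 89.7 for Tln2 (32.3 to 40.5 in the other control mice), 179 for Cdk7 (76.6 to 86.1) and 359 for Mapk8 (162 to 191). In bulk mPFC, another mouse that is also control replicate 4 had 67.0 CPM of Adamts17 (89.4 to 93.6 in the other control mice), and CUS replicate 1 had 24.2 CPM of Kit (26.3 to 27.0 in the other CUS mice).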

How the results depend on the processing

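In Ndnf Lamp5 nuclei, 935 of 943 values under an alternative kept their direction and their side of the threshold, as did 112 of 112 for the interaction and 82 of 112 for single genes in bulk. None of the genes in nuclei had been called, and most had been picked for their p or their difference in these mice. A constant direction and side of the threshold in nuclei is therefore no further evidence. The count of called genes was 0 in every alternative for nuclei except 1 with at least 3 markers. Of the genes counted, signs turned for Cnr1 with at least 3 markers (-0.23), for Il1rapl2 with a doublet score of at most 0.2 (0.20) and, without 1 mouse, for Il1rapl2 (-1.72 to 0.71), Zbtb16 (-0.0192 to 0.26, and -0.0124 without both shallow mice), Lrp8 (-0.0948 to 0.56), Brinp3 (-0.71 to 0.0041) and Rit2 (-0.66 to 0.10). Over all alternatives they also turned for Yy1 (-0.31 to 0.08), Adamts17 (-0.42 to 0.06) and Alk (-0.12 to 0.28) in members. In bulk they turned for Kit (-0.0003 without TMM factors, -0.0152 to 0.0591 without 1 mouse) and Has2os (-0.0627 to 0.17 without 1 mouse), and over all alternatives for Reln (-0.04 to 0.05) and Adarb2 (-0.18 to 0.02). Of the class-enriched genes, 3 were called in bulk, against 8 with the likelihood ratio test, 8 with DESeq2, 7 without the filter on low counts and 6 on the 3-fold list. Without 1 mouse the count ran from 0 (without CUS replicate 5) to 6 (without control replicate 1 or 3 or CUS replicate 2), and it was 1 without control replicate 2 or CUS replicate 3 or 4. Over all bulk genes, 606 were called, against 1330 with the likelihood ratio test, 1402 with DESeq2 and 133 to 1508 without 1 mouse. The cause was not tested. Without TMM factors, 15 of the 59 class-enriched genes lay above and 44 below 0 in bulk. No label says that samples of the same replicate number belong together, and they did not deviate together in every pair (correlation of deviations -0.05 to 0.08 in members and 0.02 to 0.15 in bulk). With a replicate block, 0 genes were called in members (171 at an unadjusted p under 0.05), 2 class-enriched genes and 238 of all genes in bulk. Values for nuclei rest on 20 to 75 members per mouse.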
